A study of Mus musculus with 6 samples.

Results

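Cell cycle regulators and topoisomerases were followed in soleus, a slow postural hindlimb muscle, of C57Bl/6 mice after 1 day of reloading. Reloading means that the muscles had been unloaded before, for a time not given here. The 8 genes were Ccnd1, Cdk4, Rb1, Cdkn1a, Ccna2, Pcna, Top2a and Top3b, chosen by gene symbol, each with 1 probe among the 223 probes of the array. The data held 6 wild-type samples (so titled), replicates 1 to 6, with 1 array each, made from 3 micrograms of total RNA taken from cryosections. All samples belonged to the same reloaded group, and no muscle of another condition was analysed here, so the measurements give levels and their spread between samples. Whether each sample came from its own animal was not stated in the labels, so p-values measure only the spread between these samples, which may be technical.

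Progress through the cell cycle is set by cyclins and their partner kinases. Cyclin D1 with CDK4 phosphorylates the retinoblastoma protein, which releases E2F factors that switch on genes of DNA replication, and p21, the product of Cdkn1a, holds the cyclin-dependent kinases back. Adult muscle fibres have left the cycle, while satellite cells, endothelial cells and interstitial cells of the same tissue can divide. In muscle, p21 and the retinoblastoma protein are also known for keeping differentiating myoblasts out of the cycle. Topoisomerases relax and untangle DNA.

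Of the 8 genes, 6 were above 0 on all 6 arrays (Ccnd1, Cdk4, Rb1, Cdkn1a, Pcna and Top3b), against 78.5% of all 223 probes. Background had been subtracted from the deposited intensities, since some were negative, and the most negative value of each array, taken without its sign, served as its noise bound. On every array 5 of the 8 genes exceeded that bound, against 58.3% of all probes. Cdkn1a exceeded it on 5 of 6 arrays, Top2a on 1 of 6 and Ccna2 on 0 of 6. The brightness of an array, its summed intensity, was highest on replicate 1 and lowest on replicate 6, at 165.3 and 13.8, and the remaining arrays ranged from 35.2 to 41.3. Levels are therefore given as log2 intensity minus the median of the 175 probes above 0 on all arrays, unless deposited units are named. Levels of different probes were not compared as amounts of RNA. Ratios and sums of probes were followed only from array to array.

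The tissue label was checked on its markers. Of 7 fibre markers, 6 were on the array (Myh7, Myh2, Myh1, Myh4, Des and Mb), and all 6 exceeded the noise bound on every array. These hold slow and fast myosin genes, so they mark muscle and not the slow soleus in particular. Their summed level was between 151.0 array medians on replicate 6 and 410.2 on replicate 1. All 5 endothelial markers (Cdh5, Pecam1, Tek, Flt1 and Kdr) exceeded the bound, with a sum between 7.35 array medians on replicate 1 and 14.3 on replicate 5. The adipocyte marker Fabp4 was highest on replicate 1 and lowest on replicate 6, at 7.10 and 2.33 array medians. Of 6 leukocyte markers only Il1b was on the array, above 0 on 0 of 6 arrays, and of 3 satellite cell markers only Myf5, above the bound on 1 of 6. Of 5 fibroblast and matrix markers, Fn1 and Pdgfra were on the array. Their sum was between 3.36 array medians on replicate 6 and 9.19 on replicate 3. Pdgfra and 1 Fn1 probe exceeded the bound on every array, while another Fn1 probe did so on 3 of 6. In whole muscle, fewer cells of a type and less RNA per cell cannot be told apart.

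Over all 6 arrays, Ccnd1 and Rb1 had the more even levels among the regulators. Cdk4 and Cdkn1a varied widely, with the highest array of each being the lowest of the other. Ccnd1, which encodes the growth factor-responsive G1 cyclin, stood at 0.95 on replicate 3, 0.20 on replicate 1, -0.16 on replicate 4, -0.19 on replicate 6, -0.36 on replicate 2 and -0.71 on replicate 5. Replicate 3 was thus 3.18-fold above replicate 5, and the mean was -0.045 ± 0.57 (SD, n = 6). Without replicate 3 the SD of Ccnd1 was 0.33. Rb1, which encodes the retinoblastoma protein, stood between -0.25 on replicate 1 and 0.53 on replicate 4, with -0.14 on replicate 6 and 0.21, 0.44 and 0.47 on replicates 2, 5 and 3. It was lower on replicates 1 and 6 than on the other 4, and its whole range was 1.71-fold (mean 0.21 ± 0.33, SD, n = 6). Only 11.8% of the other named genes had a smaller SD than Rb1, against 42.9% for Ccnd1. After the noise bound was taken off the highest value and added to the lowest, the ranges were 2.28-fold for Ccnd1 and 1.27-fold for Rb1.

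Cdk4, which encodes the kinase partner of cyclin D1, was highest on replicate 6 at 2.14 and on replicate 5 at 1.21. It stood at 0.32 on replicate 2, -0.39 on replicate 4, -1.12 on replicate 3 and -1.27 on replicate 1. Replicates 5 and 6 therefore lay above the rest, and the range was 10.6-fold (mean 0.15 ± 1.34, SD, n = 6), or 6.73-fold with noise allowed for. In deposited units too Cdk4 was highest on replicate 6, with 0.0435, against 0.0268 on replicate 1, although replicate 6 was the dimmest array. Of 162 named genes, 6 had their highest deposited value on replicate 6 and 137 on replicate 1. The Cdk4 value on replicate 6 was 39.5 times the noise bound of that array, and on replicate 1 it was 1.86 times.

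Cdkn1a, the inhibitor gene, was highest on replicate 1 and lowest on replicate 6. It stood at 0.84 on replicate 1, -0.47 on replicate 2, -0.68 on replicate 3, -1.21 on replicate 5, -1.59 on replicate 4 and -3.17 on replicate 6. On replicate 6 its deposited intensity of 0.0011 equalled the noise bound, so the range of 16.1-fold is from the bound, and with noise allowed for it was 7.05-fold. The mean was -1.05 ± 1.33 (SD, n = 6). The SDs of Cdkn1a and Cdk4 exceeded those of 90.1% and 90.7% of the other named genes. Without replicates 1 and 6, the arrays of highest and lowest summed signal, the SD was 0.52 for Cdkn1a, and likewise 0.13 for Rb1. It was 0.72 for Ccnd1 and 1.00 for Cdk4, so on the remaining arrays Ccnd1 varied more than Cdkn1a.

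**Figure D1:**
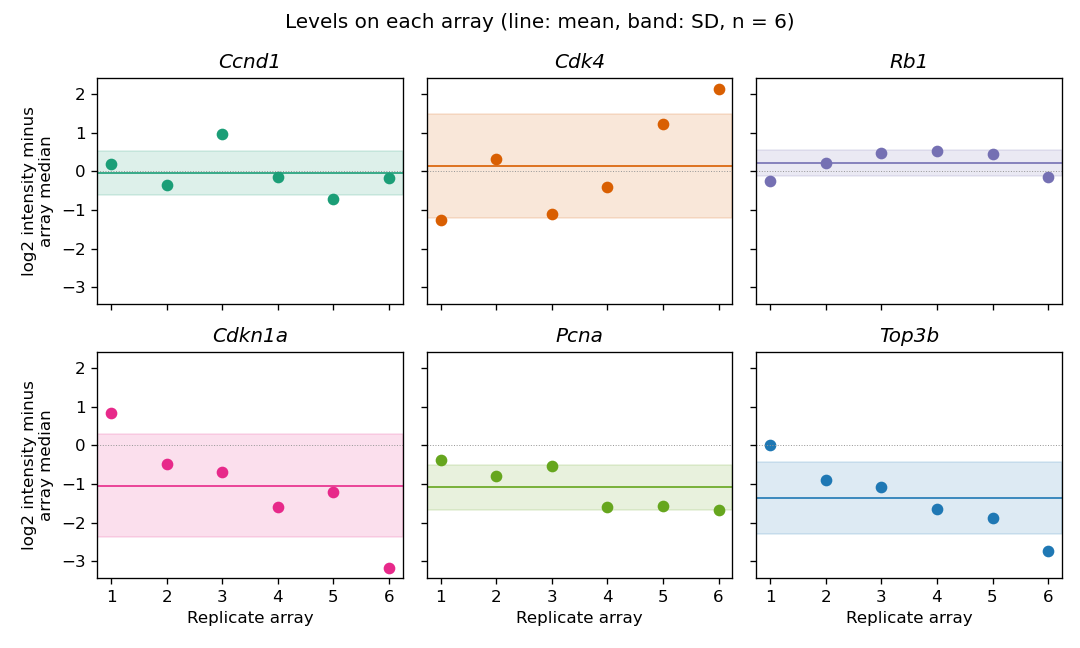
Log2 intensity minus the array median for the 6 genes above 0 on all arrays (y axis), on each replicate array (x axis). Points are single arrays, lines the mean and bands the SD (n = 6), and Cdk4 was highest on replicate 6 at 2.14 where Cdkn1a was lowest at -3.17.

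Ccna2 and Top2a were at or below 0 on most arrays. Ccna2, which encodes the cyclin of S and G2 phase, had deposited values of -0.0085 on replicate 1, -0.0012 on replicate 3, -0.0003 on replicate 5, -0.0001 on replicates 2 and 4, and 0.0003 on replicate 6. None of these exceeded the noise bound, which ranged from 0.0011 to 0.0028 on replicates 2 to 6 and reached 0.0144 on replicate 1. Top2a, which encodes the topoisomerase that separates sister chromatids in dividing cells, had 0.0084 on replicate 6 and 0.0014 on replicate 2. On the other 4 arrays it was below 0, between -0.0091 on replicate 1 and -0.0003 on replicate 4. The value on replicate 6 was 7.64 times the bound, and that on replicate 2 was 0.67 times. Replicate 6 was thus the array on which Top2a exceeded the bound, and also the one on which Cdk4 was highest. On the median-centred scale 34 of 162 named genes were highest on replicate 6, and Pcna was lowest there. A transcript may be present although its value did not exceed the bound.

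**Figure D2:**
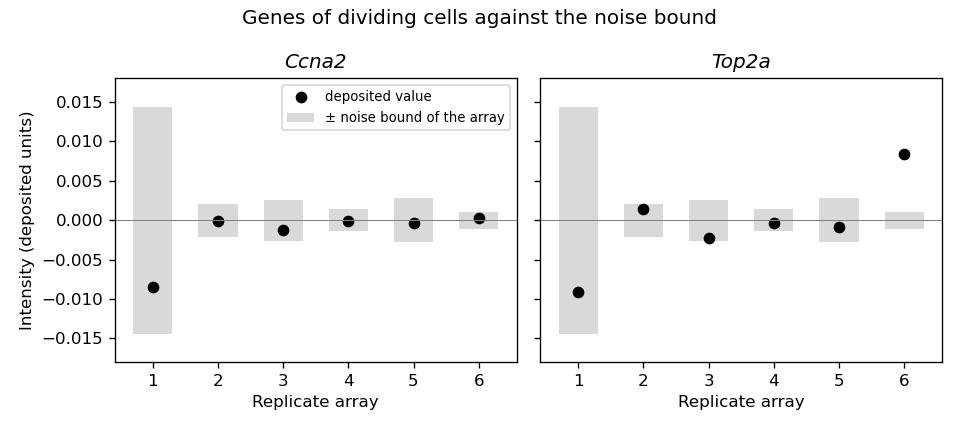
Deposited intensities of Ccna2 and Top2a (points, y axis in deposited units) on each replicate array (x axis), with the noise bound of each array on both sides of 0 (grey bars). Only Top2a on replicate 6, at 0.0084, lay outside the bar.

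Pcna, which encodes the sliding clamp of DNA polymerases, was measured on every array, at 2.04 to 4.12 times the noise bound. It stood at -0.39 on replicate 1, -0.53 on replicate 3, -0.80 on replicate 2, -1.57 on replicate 5, -1.59 on replicate 4 and -1.68 on replicate 6. Replicates 1, 2 and 3 lay above replicates 4, 5 and 6, and the range was 2.43-fold (mean -1.09 ± 0.59, SD, n = 6). With noise allowed for, 1.27-fold was left. Top3b encodes a type IA topoisomerase that acts on single-stranded DNA and on RNA and is not tied to division. Its level was 0.0022 on replicate 1, -0.89 on replicate 2, -1.08 on replicate 3, -1.65 on replicate 4, -1.88 on replicate 5 and -2.72 on replicate 6. Replicate 1 was highest and replicate 6 lowest, as for Cdkn1a and Pcna, with a range of 6.61-fold, or 2.97-fold with noise allowed for (mean -1.37 ± 0.93, SD, n = 6). Its SD was 0.48 without replicates 1 and 6.

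Promoter sequences are shown for Cdk4 and Cdkn1a, whose extremes fell on opposite arrays, and for Top2a, the gene of dividing cells seen above the bound on 1 array. They run from 250 bases before to 50 bases after the gene's start (RefSeq, GRCm38.p6), read 5′ to 3′ on the gene's strand, and 5 of the 8 genes had such a window. Capitals mark CACGTG, the E-box that Myc and related factors bind, in Cdk4 (chr10:127063285-127063584, plus strand). In Cdkn1a (chr17:29090729-29091028, plus strand), they mark an element of a pair of p53 half-sites with at most 1 letter off the consensus. In Top2a (chr11:99024140-99024439, minus strand) they mark CCAAT, on either strand, the box bound by NF-Y.
Cdk4: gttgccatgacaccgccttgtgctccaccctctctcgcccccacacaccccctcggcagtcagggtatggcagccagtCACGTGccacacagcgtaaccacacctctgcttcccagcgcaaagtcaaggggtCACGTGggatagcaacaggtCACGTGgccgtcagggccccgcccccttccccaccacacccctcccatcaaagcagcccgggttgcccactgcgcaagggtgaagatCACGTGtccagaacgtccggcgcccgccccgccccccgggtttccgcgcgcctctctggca
Cdkn1a: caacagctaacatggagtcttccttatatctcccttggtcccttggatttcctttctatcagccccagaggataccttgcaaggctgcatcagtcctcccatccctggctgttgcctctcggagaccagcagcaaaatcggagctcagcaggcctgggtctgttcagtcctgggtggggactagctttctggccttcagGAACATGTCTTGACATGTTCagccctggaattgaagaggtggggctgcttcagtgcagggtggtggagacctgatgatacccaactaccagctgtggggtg
Top2a: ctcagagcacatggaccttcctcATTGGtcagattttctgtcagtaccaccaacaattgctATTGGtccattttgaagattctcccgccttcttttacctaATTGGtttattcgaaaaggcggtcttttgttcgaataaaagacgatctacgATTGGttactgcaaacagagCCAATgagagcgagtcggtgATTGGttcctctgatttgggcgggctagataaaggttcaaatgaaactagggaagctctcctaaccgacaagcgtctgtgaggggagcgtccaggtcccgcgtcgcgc
The Cdk4 window held 4 copies of CACGTG, starting 172, 118, 98 and 11 bases before the start. At least 1 copy was in 7.15% of the 32851 mouse windows searched, and 4 or more copies were in 8 of them. The p53 element of Cdkn1a began 51 bases before the more upstream of its 2 annotated starts, which lie 2790 bases apart. The window of the other start, not shown, held no such element and had 2 copies of GGGCGG. Such an element was in 0.0883% of all windows. Top2a held 6 CCAAT boxes, against at least 1 in 37.4% of all windows and 4 or more in 1.06%. Top2a also held 2 copies each of TTTGAA and of TTCGAA, the letters of the cell cycle homology element, which were in 17.9% and 1.56% of windows. The marked copies overlapped none of the other motifs searched on both strands, which included the GC box GGGCGG and the E2F-like TTTNNCGC. Pcna held 1 CCAAT box and 2 copies of GGGCGG, which was in 35.7% of windows, and Top3b held 1 CCAAT box. GGGCGG was also found in the windows shown for Cdk4, with 3 copies, and for Top2a, with 1. These matches describe letters in the windows, and whether any of them is bound or bears on the levels above was not tested.

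Across the 6 arrays, Cdkn1a, Pcna and Top3b were high and low together, and over all 6 arrays Cdk4 was low where they were high, although none of these relations passed after adjustment over all probes. Pearson's r was 0.98 for Cdkn1a and Top3b (exact permutation p = 0.00833, 0.155 after adjustment), with Spearman's rho of 0.94 (exact permutation p = 0.0167, 0.205 after adjustment). For Pcna and Top3b r was 0.89 (exact permutation p = 0.00833, 0.155 after adjustment) and rho 0.89 (exact permutation p = 0.0333, 0.263 after adjustment). For Cdkn1a and Pcna r was 0.84 (exact permutation p = 0.0111, 0.164 after adjustment) and rho 0.94 (exact permutation p = 0.0167, 0.205 after adjustment). Cdk4 had r = -0.85 with Top3b (exact permutation p = 0.0292, 0.215 after adjustment) and rho = -0.83 (exact permutation p = 0.0583, 0.319 after adjustment). With Cdkn1a it had r = -0.80 (exact permutation p = 0.0472, 0.254 after adjustment) and rho = -0.71 (exact permutation p = 0.136, 0.439 after adjustment). For Cdk4 and Pcna r was -0.78 (exact permutation p = 0.103, 0.351 after adjustment) and rho -0.83 (exact permutation p = 0.0583, 0.319 after adjustment).

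These tests were two-sided over all 720 pairings of samples, and p-values were adjusted by Benjamini and Hochberg over the 15225 pairs of the 175 probes. After adjustment 0 of the 15 pairs among the 6 genes passed 0.05 by Pearson's r or by Spearman's rho, and 0% of all pairs of probes passed. The smallest p that 720 pairings can give is 0.00139. Over 15225 pairs no pair could pass unless many others also had a p near that smallest value. That none passed therefore says little about these genes. Before adjustment, 5 of the 15 pairs (33.3%) had a Pearson p under 0.05, against 18.9% of all pairs of probes. An r of at least 0.8 in size was found in 4 of the 15 pairs (26.7%), against 20.3% of all pairs. Strong correlation over these arrays was thus common among probes and not shown to be particular to the cell cycle genes.

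**Figure D3:**
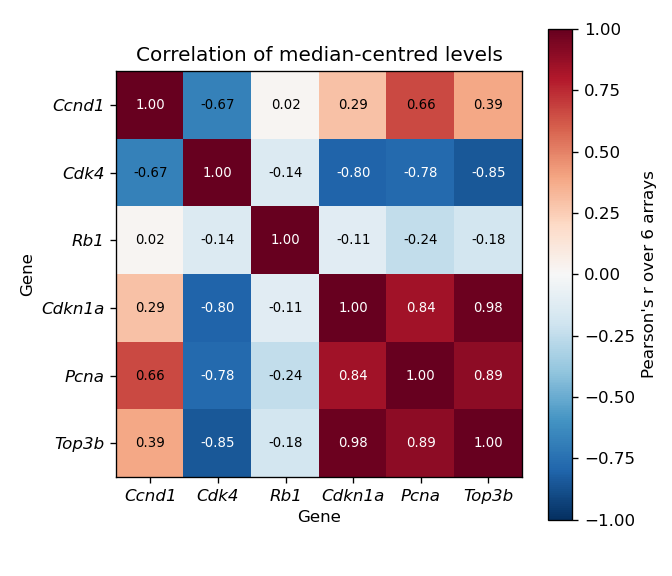
Pearson's r over 6 arrays between the median-centred levels of the 6 genes above 0 on all arrays (both axes are genes; colour and number give r). Cdkn1a, Pcna and Top3b had r from 0.84 to 0.98 with each other, and Cdk4 had r from -0.85 to -0.78 with them.

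In some pairs the samples farthest from the median of the first gene were left out. This kept the positive relations among Cdkn1a, Pcna and Top3b and shrank the negative ones of Cdk4 with them. Without replicates 1 and 6, r was 0.87 for Cdkn1a and Top3b and 0.89 for Cdkn1a and Pcna, and without replicates 1 and 3 it was 0.85 for Pcna and Top3b. Without replicates 5 and 6, r of Cdk4 was -0.44 with Top3b, -0.46 with Cdkn1a and -0.49 with Pcna. Without replicates 1 and 6 they were -0.49, -0.14 and -0.57, so that among replicates 2 to 5 little of the relation of Cdk4 with Cdkn1a was left. In deposited units with no centring, r of Cdk4 was -0.17 with Top3b and with Pcna, and -0.16 with Cdkn1a. Ccnd1 had r = 0.66 with Pcna (exact permutation p = 0.156, 0.42 after adjustment) and -0.67 with Cdk4 (exact permutation p = 0.136, 0.395 after adjustment), with rho of 0.49 and -0.77 (exact permutation p = 0.356 and 0.103, or 0.653 and 0.400 after adjustment). Without replicates 3 and 5 those r were 0.48 and -0.59, and without replicates 1 and 6 they were 0.73 and -0.92. Rb1 had r between -0.24 and 0.016 with the other 5 genes, and the sign of these values changed with the scaling or with the arrays used. Cdkn1a, Pcna and Rb1 carry consecutive probe labels (17F, 17G and 17H). Whether these give positions on the array was not stated.

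Brightness was related to the levels of 4 of the 6 genes before adjustment for multiple tests. Against log2 summed intensity, Cdkn1a had r = 0.94 (exact permutation p = 0.025, 0.141 after adjustment) and rho = 0.94 (exact permutation p = 0.0167, 0.122 after adjustment). Top3b had r = 0.93 (exact permutation p = 0.00833, 0.0858 after adjustment) and rho = 0.89 (exact permutation p = 0.0333, 0.139 after adjustment). Pcna had r = 0.74 (exact permutation p = 0.00139, 0.0608 after adjustment), where 0.00139 is the smallest p that 720 pairings can give, and rho = 1.00 (exact permutation p = 0.00278, 0.122 after adjustment). Cdk4 had r = -0.79 (exact permutation p = 0.0472, 0.150 after adjustment) and rho = -0.83 (exact permutation p = 0.0583, 0.176 after adjustment). Ccnd1 had r = 0.28 (exact permutation p = 0.517, 0.634 after adjustment) and rho = 0.49 (exact permutation p = 0.356, 0.49 after adjustment). Rb1 had r = -0.26 (exact permutation p = 0.629, 0.729 after adjustment) and rho = -0.26 (exact permutation p = 0.658, 0.778 after adjustment). In deposited units with no centring, r with brightness was -0.16 for Cdk4 and between 0.90 (Ccnd1) and 0.99 (Cdkn1a) for the others. With the array median in place of the sum, r of the centred levels was -0.66 for Cdk4, 0.84 for Cdkn1a, 0.83 for Top3b and 0.63 for Pcna.

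After adjustment over the 175 probes 0 of the 6 genes passed 0.05, by either coefficient, and 0% of all probes did. Before adjustment 4 of the 6 genes had a Pearson p under 0.05, against 32% of all probes (56 of 175). Only 2 probes had a higher r with brightness than Cdkn1a and 3 than Top3b, while 25 had a lower r than Cdk4. Without replicates 1 and 6, the brightest and the dimmest array, r was 0.69 for Cdkn1a, 0.70 for Top3b, 0.93 for Pcna, -0.69 for Cdk4, 0.89 for Ccnd1 and -0.058 for Rb1. After quantile normalization Cdkn1a (r = 0.95) and Top3b (r = 0.92) passed the threshold, each with an adjusted exact permutation p of 0.0442. After a linear fit of each gene on brightness, the residuals had r = 0.83 for Cdkn1a and Top3b, 0.81 for Pcna and Top3b and 0.64 for Cdkn1a and Pcna. For Cdk4 they had r = -0.26 with Cdkn1a, -0.46 with Pcna and -0.50 with Top3b. The residuals were not tested. As a description, the 6 fibre markers had r between -0.96 (Des) and -0.92 (Myh2) with Cdk4, and between 0.70 (Myh4) and 0.91 (Myh1) with Cdkn1a. Fabp4 had -0.84 and 0.96. Of the 5 endothelial markers, Flt1 had r = 0.86 with Cdk4 and -0.91 with Cdkn1a and Pecam1 had 0.75 and -0.47, while Kdr, Cdh5 and Tek had -0.026, -0.19 and -0.56 with Cdk4. The part of brightness in the levels of these genes was not tested, nor was that of these other cell type markers or of the fibre markers, whose summed level was also highest on replicate 1 and lowest on replicate 6.

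**Figure D4:**
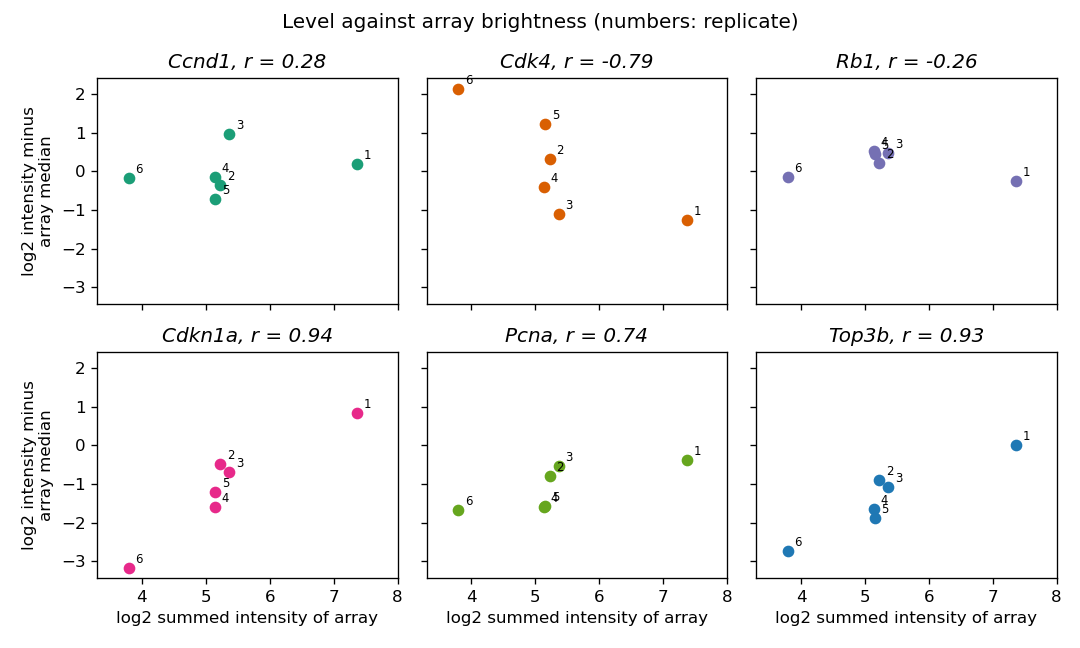
Median-centred log2 level of each gene (y axis) against the log2 summed intensity of the array (x axis), with each of the 6 arrays labelled by its replicate number. Cdkn1a and Top3b were higher on brighter arrays (r = 0.94 and 0.93) and Cdk4 was lower (r = -0.79).

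A ratio of 2 probes within an array does not depend on the scale of that array, and was followed from array to array. Its size was not read as a ratio of RNA amounts. The ratio of Cdk4 to Cdkn1a was 0.231 on replicate 1, 0.740 on replicate 3, 1.73 on replicate 2, 2.30 on replicate 4, 5.37 on replicate 5 and 39.5 on replicate 6. On replicate 6 Cdkn1a was at the noise bound and not above it, so that the ratio there is a value against the bound, and Cdk4 on replicate 1 was 1.86 times its bound. Among replicates 2 to 5, where both genes exceeded the bound by more than 2.6 times, the range was 7.26-fold. The ratio of Ccnd1 to its partner Cdk4 was highest on replicate 3 at 4.20 and lowest on replicate 6 at 0.200, with an SD of 1.78 on the log2 scale.

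The ratios of Cdkn1a and of Pcna to Top3b were steadier. Cdkn1a to Top3b was 1.79 on replicate 1, 1.59 on replicate 5, 1.33 on replicate 2, 1.32 on replicate 3, 1.04 on replicate 4 and 0.733 on replicate 6. Its range was 2.44-fold with Cdkn1a on replicate 6 at the noise bound, and 1.53-fold without replicates 1 and 6. Pcna to Top3b ranged 2.72-fold (SD of the log2 ratio 0.49), highest on replicate 6 and lowest on replicate 1, and Ccnd1 to Pcna ranged 2.06-fold (SD 0.48). Cdkn1a to Pcna ranged 6.62-fold (SD 0.89), again with Cdkn1a on replicate 6 at the noise bound. Without replicates 1 and 6 it ranged 1.43-fold. Over the 15 pairs the median SD was 1.05, against 0.93 for all 13041 pairs of named genes, and 8 of the 15 were wider than that median.

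**Figure D5:**
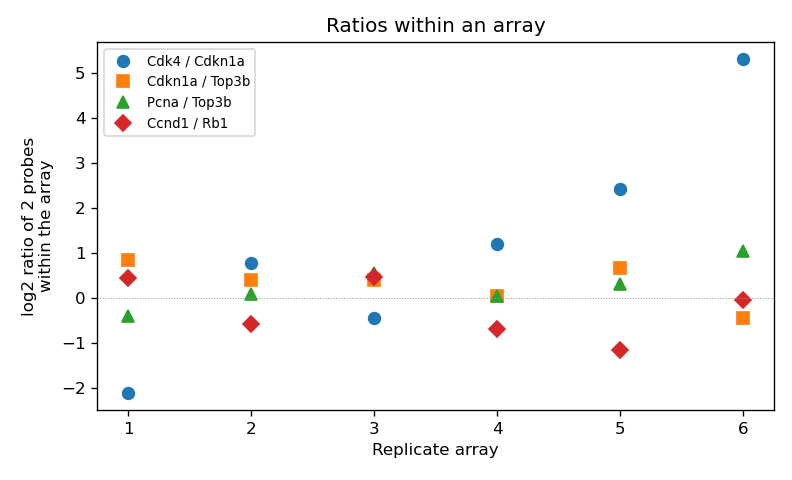
Log2 ratio of 2 probes within each array (y axis) for 4 pairs of genes, on each replicate array (x axis). Without replicates 1 and 6, Cdk4 over Cdkn1a ranged 7.26-fold and Cdkn1a over Top3b 1.53-fold. On replicate 6 Cdkn1a was at the noise bound and not above it.

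The genes whose pattern over the 6 arrays was most like each of the 6 were named by the highest Pearson r among 162 named genes, as a description. For Cdkn1a these were Cd44 (r = 0.98), Csf2ra (0.98) and Top3b (0.98), and for Top3b they were Cd44 (0.98), Cdkn1a (0.98) and Cited2 (0.98). For Cdk4 they were the ephrin genes Efnb2 (0.98) and Efnb1 (0.95) and the integrin gene Itga8 (0.98). Pcna was most like Myf6 (0.94), Itgb1 (0.93) and Acadl (0.93). Ccnd1 was most like the glycolytic genes Pgk1 (0.86) and Aldoa (0.85) and the calpastatin gene Cast (0.85), and Rb1 was most like Timp1 (0.86), Cdh5 (0.86) and Mmp14 (0.84). Csf2ra and Itga8 exceeded the noise bound on 5 of 6 arrays, and the others named here, apart from Cdkn1a, on all 6.

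Few other cell cycle genes were on the array. Of a list of 22, only the topoisomerase genes Top1 and Top3a were present. Top1, the enzyme that nicks a single strand to relax DNA, was highest on replicate 1 and lowest on replicate 6 with a range of 3.63-fold, like Top3b. Top3a, which acts with the BLM helicase on recombination intermediates, was highest on replicate 6 and lowest on replicate 1, and exceeded the noise bound on 4 of 6 arrays. Its value of 0.0022 in deposited units on replicate 1 was under the bound of 0.0144 there, so its order on that array was not measured. A further 7 genes were picked from the probe names, of which 6 were above 0 on all arrays and 3 exceeded the bound on all. Those 3 were Pold1 and Pole2, subunits of replicative DNA polymerases, and Ccna1, a cyclin known mainly from the testis. Pold1 had an SD of 0.94 and was highest on replicate 5, Pole2 had an SD of 0.80 and was highest on replicate 3, and Ccna1 had an SD of 0.95 and was highest on replicate 2. The CDK inhibitor Cdkn2d had an SD of 0.33, the same as Rb1, and exceeded the bound on 5 of 6 arrays. Over the 6 cell cycle genes and topoisomerases above 0 on all arrays the median SD was 0.76, against 0.64 for all 162 named genes.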

How the data were processed

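Soleus RNA of 6 reloaded samples was measured on 1 array each. The deposited table held 1 linear intensity per probe and array, made by the authors with a scanner, background method and normalization not given in the sources used here. Negative values show that some background was subtracted. Probes were named from the platform annotation. Its identifiers for the 8 genes matched current symbols of the GRCm38.p6 gene table. Probe sequences were not used here.

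Intensities of the 175 probes above 0 on all arrays were converted to log2 with no pseudocount and centred on each array's median over them (Python 3.11.15, numpy 2.4.6, pandas 2.3.3). Values at or below 0 were kept in deposited units. Correlations over arrays were tested by exact permutation of all 720 pairings. P-values were adjusted over all probes or pairs of probes, because the genes and lists were chosen with earlier results of these data known. Planned had been an adjustment over only those of the 8 genes above 0 on all arrays, or over their pairs. All 8 genes are named, with the 3 most similar genes of each kept one. The further replication genes were chosen from probe names after the files had been opened. Which motifs to search was chosen after the promoters had been read. The tests were tested on simulated data. Alternatives were deposited units, quantile normalization, scaling to the ribosomal 28S probe, the noise bound as filter or floor, and leaving out replicates. The number of arrays limits the precision.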

Additional observations from a re-analysis of the deposited data

Results flagged for a closer look

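Among 24 sets of 6 values (levels of the 8 genes, log2 ratios of the 15 pairs and the log2 summed intensity), 1 held a sample whose gap to the nearest other exceeded Dixon's 95% critical value for 6 samples. It was Ccna2 in deposited units, with a gap of 0.83 of its range between replicate 1 at -0.0085 and the other arrays, which lay between -0.0012 and 0.0003. The value on replicate 1 was smaller in size than the noise bound of that array, 0.0144. Chance flags about 1 in 20 sets of normal values, which is 1.2 of 24.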

How the results depend on the processing

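No alternative made any of the 15 pairs pass after adjustment. This says little, because the smallest exact p is large for an adjustment over all pairs of probes, and larger still with fewer arrays. The count of genes that followed brightness with an adjusted exact permutation p under 0.05 was 0, but 4 in deposited units, where brightness itself is part of each level, and 2 after quantile normalization. It stayed at 0 with the array median in place of the sum and without each replicate in turn. With 5 arrays the exact tests have fewer pairings, so those counts say little. The median SD of the 6 genes, 0.76, was 1.27 with no centring and 1.01 on the scale of the 28S probe, and 0.67 to 0.83 when each replicate was left out in turn. The median SD of the log2 ratios, 1.05, was 0.63 without replicates 1 and 6 together, and 0.77 to 1.17 without each in turn. The r values among Cdkn1a, Pcna and Top3b stayed positive in every setting run, and those of Cdk4 with them stayed negative.

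The signs that changed were all of relations of Rb1, with r between -0.26 and 0.016 as reported. In deposited units r of Rb1 was 0.97 with brightness, 0.94 with Cdkn1a, 0.89 with Pcna and 0.93 with Top3b. After scaling to 28S the same 4 were 0.66, 0.71, 0.71 and 0.75. Ccnd1 and Rb1 had r = -0.14 after quantile normalization and -0.065 with probes under the noise bound left out. Without replicates 1 and 6 together, Rb1 had r = 0.0089 with brightness when the probes were chosen and centred anew on the remaining 4 arrays, against -0.058 on the scale set over all 6 arrays, and both are close to 0. Leaving out each replicate in turn gave ranges of -0.92 to 0.89 for Rb1 with brightness, -0.71 to 0.26 for Ccnd1 and Rb1, -0.80 to 0.41 for Cdk4 and Rb1, -0.96 to 0.67 for Rb1 and Cdkn1a, -0.69 to 0.25 for Rb1 and Pcna, and -0.92 to 0.58 for Rb1 and Top3b. The cause was not tested. The filter at the noise bound left out Cdkn1a. No paired analysis was possible because there was 1 group. Signal over background limits Top3b, Cdk4 and Pcna most among the genes above the bound on all arrays, with lowest values of 1.36, 1.86 and 2.04 times the bound.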
